A study of Mus musculus with 4 samples.

Results

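The 73 mitochondrial ribosomal protein genes described here are the *Mrpl* and *Mrps* genes with a mean normalized count above 50 in bulk RNA-seq of FACS-purified hair follicle stem cells (HF-SCs), out of 24421 genes in the deposited table. They were chosen by name and by this minimum, with earlier results of these data known. By name 77 genes matched, and 4 of them had a mean of 50 or less. Of the 73 genes, 44 are *Mrpl* and 29 are *Mrps* genes. The study sequenced 2 control and 2 *miR-205*-induced samples of C57BL/6 mice at postnatal day 44. Doxycycline chow was given for 2 d from postnatal day 42, and the drug switches on a *pTRE2-miR-205* transgene through a *Krt14*-driven rtTA, so that induction is limited to keratin 14-expressing epithelium. Mice of both groups carried a *K14-H2BGFP* allele and were matched by sex, and live cells were sorted by surface proteins and H2BGFP. The treatment label of the controls reads untreated, whereas the protocol in the labels has both groups on doxycycline. The transgene was made by injection into FVB mice, several lines were kept, and neither which line was used nor the alleles of the control mice is given in the sources used here.

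Mitochondria keep their own ribosome, which makes the few membrane proteins of the respiratory chain that mitochondrial DNA encodes. Its RNA is made inside the organelle, while its proteins are encoded in the nucleus by the *Mrpl* genes, mainly of the large subunit, and the *Mrps* genes, mainly of the small subunit, and are imported after translation in the cytosol. Tetracyclines such as doxycycline bind the small subunit of bacterial ribosomes and are known to slow mitochondrial translation as well. Bulge HF-SCs in telogen are quiescent cells.

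The deposited table gives 1 mean normalized count per gene over the 4 libraries, beside the authors' own comparison, which is not used here. Because the mean is printed to 15 significant digits and is a sum of whole reads with 1 weight per library, the reads of each library could be recovered from it. For all 14591 genes with a mean above 0 and up to 1000, exactly 1 set of 4 whole numbers gave the printed mean. The 4 libraries are called A, B, C and D here, by decreasing size factor (the divisor that puts libraries on 1 scale). The factors are 1.24, 1.18, 0.966 and 0.716. No name goes with a recovered library. The fold changes of the authors' comparison could bear on which libraries form a group, but they were not used, so no library was assigned to the control or the induced group, no difference between the groups was computed, and the values below are those of 4 unlabelled libraries. The recovered genes held between 1912745 and 3337862 reads per library. The 2453 genes with a mean above 1000 were not recovered and hold 79.5% of the summed mean. The methods state for RNA-seq in general that it was done on pairs of control and inducible samples and that controls were littermates, while the labels do not say whether equal replicate numbers mark a pair.

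All 9 genes of the HF-SC marker list were present, with mean normalized counts from 3192 for *Lhx2* to 146090 for *Krt5*. Of these, *Krt15* had 119883, *Cd34* 14575 and *Lgr5* 4432. The list includes *Krt5* and *Krt14*, which the study uses to identify epithelial cells in general. Several markers of other cells had means above 1000 as well. The suprabasal keratins *Krt10* and *Krt1* had means of 7246 and 2033, the fibroblast collagens *Col1a1*, *Col1a2* and *Col3a1* 5186, 4699 and 3397, the sebaceous marker *Scd1* 3085 and the myeloid marker *Cd74* 2744, and none of these could be given by library. *Pdgfra*, a defining fibroblast marker, had a mean of 39.5. *Mc5r*, a further gene of the sebaceous list, had a mean of 2.71. Among the markers recovered, the melanocyte list (*Dct*, *Tyrp1* and *Mlana*) summed to 640, 523, 1488 and 255 normalized counts in libraries A to D. The recovered myeloid markers (*Lyz2*, *Cd207* and *Ptprc*) summed to 547, 1090, 946 and 539. *Lor*, a suprabasal marker, had 422, 623, 1183 and 187. Library C was highest and library D lowest for the melanocyte list and *Lor*. The myeloid sum was highest in library B and close in A and D. Of its genes *Lyz2* and *Ptprc* were lowest in library A, while *Cd207* was lowest in B. The part of these cells in the values below was not tested. In bulk samples fewer cells of a type and less RNA per cell cannot be told apart.

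The minimum fixed that all 73 genes were expressed, and they ranged widely in level. Their mean normalized counts ran from 57.5 to 747 with a median of 137, and a single library held between 31 and 930 reads of a member. Levels are compared between genes as the mean normalized count per kilobase of the longest annotated transcript (GENCODE vM1). On this scale the median member had 91.5, with quartiles of 64.3 and 162. All 10104 genes of known length with a mean over 50 had a median of 126, with quartiles of 57.9 and 291. The median member lay at percentile 60.2 of the 15507 genes of known length with a mean above 0, and the members spanned percentiles 33.8 to 91.9. Their transcripts were short, with a median of 1219 bases against 3150 for all genes with a mean above 50. The level of 30 members exceeded that median of 126.

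**Figure D1:**
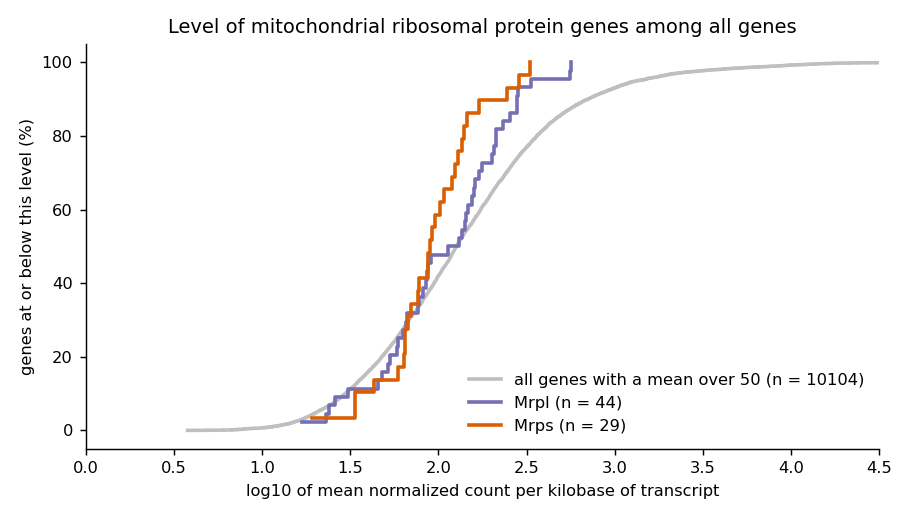
Cumulative share of genes (y axis, percent) at or below a level (x axis, log10 of the mean normalized count per kilobase of transcript) for 44 *Mrpl* genes, 29 *Mrps* genes and the 10104 genes with a mean over 50. The member curves end at 566 (*Mrpl*) and 333 (*Mrps*) per kilobase, and the curve of all genes runs on beyond 1000.

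The *Mrpl* genes had the higher median level. The median of the 44 *Mrpl* genes was 122 per kilobase (range 16.8 to 566) and that of the 29 *Mrps* genes 90.0 (range 19.3 to 333), a ratio of 1.35. No test was run, since genes are not replicates. *Mrps30* and *Mrps18a*, whose proteins sit in the large subunit in spite of their names, had 69.8 and 139 per kilobase, and the ratio was also 1.35 with both counted there.

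Among large subunit genes, *Mrpl52* had the highest level, 566 per kilobase, and encodes a protein found only in mitochondrial ribosomes. Its normalized counts were 244 in library A, 234 in B, 234 in C and 221 in D. *Mrpl24*, homologous to bacterial L24, came next with 558 per kilobase and had the highest mean normalized count of all members. It had 752 normalized counts in library A, 657 in B, 778 in C and 798 in D. The 4 libraries of *Mrpl52* lay close together, and library B was the low one for *Mrpl24*. *Mrpl30*, a homologue of bacterial L30, reached 336 per kilobase with 304 normalized counts in library A, 315 in B, 383 in C and 299 in D. *Mrpl42*, a mitochondria-specific protein, and *Mrpl23* and *Mrpl4*, homologues of bacterial proteins at the peptide exit tunnel, had 284, 280 and 278 per kilobase. For *Mrpl4* the normalized counts were 328 in library A, 339 in B, 382 in C and 379.7 in D, with libraries C and D above A and B. *Mrpl4* did not pass the test between libraries described below.

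The small subunit was led by *Mrps21* and *Mrps16*, homologues of bacterial S21 and S16, with 333 and 288 per kilobase. *Mrps21* had 171 normalized counts in library A, 189 in B, 154 in C and 135 in D. *Mrps16* had 151 normalized counts in library A, 160.3 in B, 167 in C and 174 in D. Library D was lowest for *Mrps21* and library A for *Mrps16*, and neither gene passed the test between libraries described below.

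At the low end, *Mrpl1* had 16.8 per kilobase and encodes the homologue of bacterial L1, which forms the stalk where used tRNA leaves. Its normalized counts were 59.0 in library A, 69.6 in B, 51.7 in C and 58.6 in D. *Mrps25*, a mitochondria-specific small subunit protein, had 19.3 per kilobase with 138 normalized counts in library A, 115 in B, 105 in C and 112 in D. *Mrpl19*, *Mrpl15*, *Mrpl35* and *Mrpl57* followed with 23.1, 24.0, 25.9 and 30.7 per kilobase, and *Mrps2* and *Mrps26* with 33.5 and 33.6. This order rests on the transcript length: with the coding length in its place, the median member rose to 231 per kilobase, and 4 of the 8 highest and 2 of the 8 lowest genes were the same. *Mrps25* has a transcript of 6073 bases and had 228 per kilobase of coding length. *Mrpl1* was low on both, with 59.1 per kilobase of coding length.

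The minimum of 50 cut close to several genes. Just inside it were *Mrpl46* with a mean normalized count of 57.5, *Mrpl1* with 59.7 and *Mrpl11* with 62.9. Just outside were *Mrpl22* with 44.5, *Mrpl55* with 42.1 and *Mrpl47* with 37.8. The fourth gene left out, *Mrpl34*, had 27.5.

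**Figure D2:**
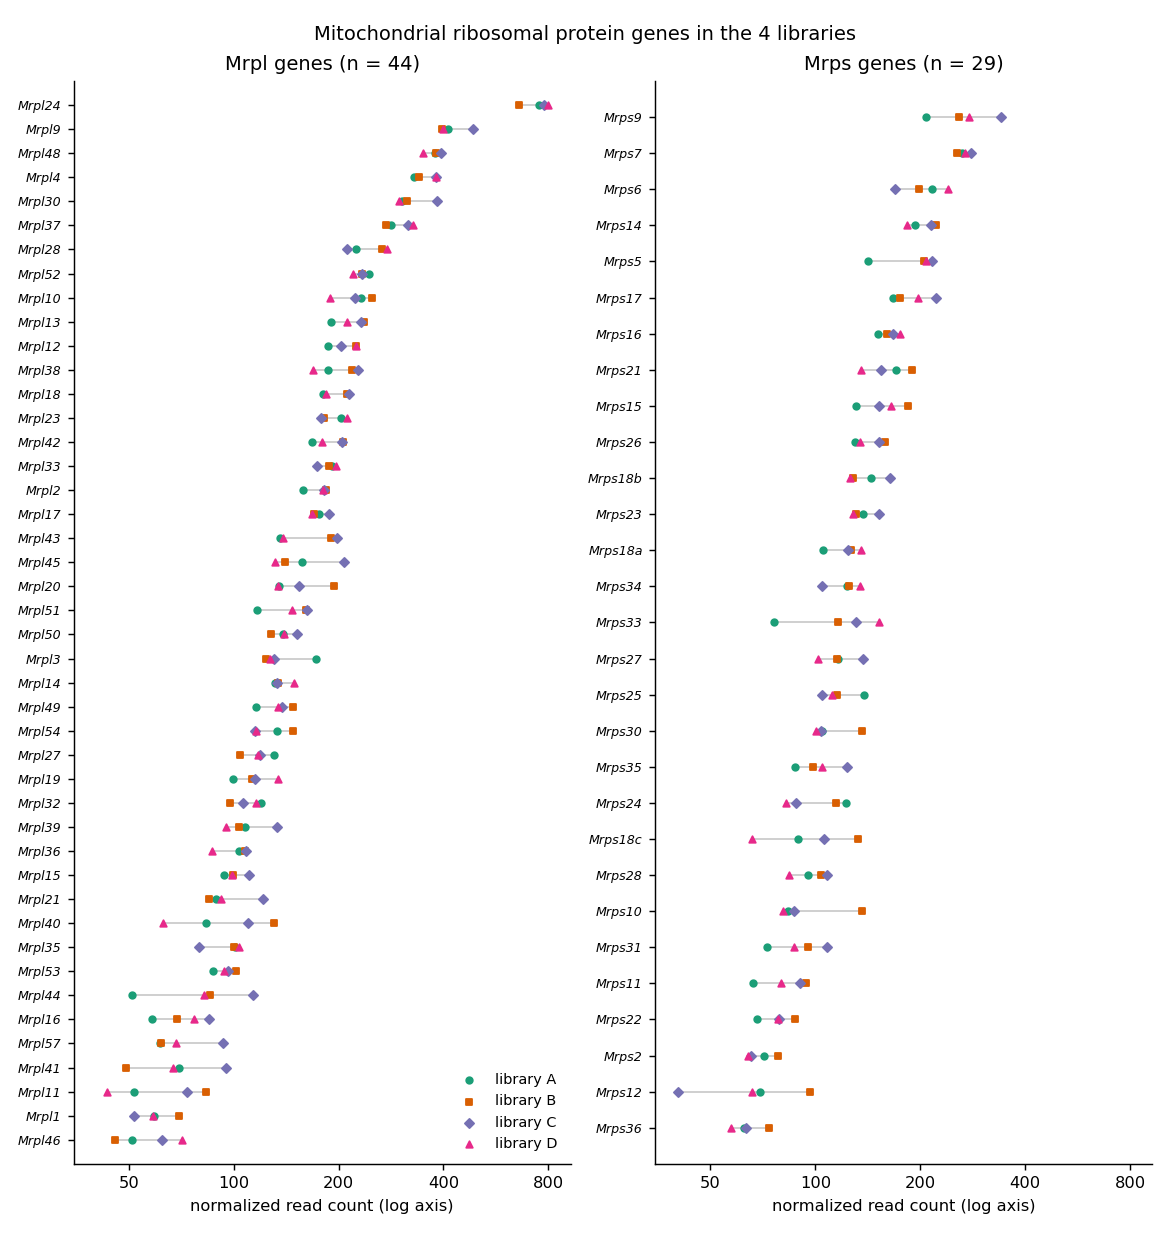
Normalized read count (x axis, log scale) of each of the 44 *Mrpl* genes (left) and 29 *Mrps* genes (right) in libraries A, B, C and D, 1 symbol per library, joined by a grey line and sorted by mean. *Mrpl24* stands at the top with 657 to 798, and *Mrps12*, *Mrpl44* and *Mrps33* have lines wider than those of their neighbours.

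Whether the libraries differed by more than the counting of reads would give was tested for each gene with a chi-square test over the 4 libraries, with p-values adjusted (Benjamini-Hochberg) across the 10669 genes that had at least 5 expected reads per library. Of the 73 members, 25 (34.2%) passed an adjusted p under 0.05. Of all genes tested 52.4% passed, and of the 6855 genes whose mean lay in the members' range 54.7% passed. Because deep genes pass more easily and the members lie low in that range, the band from 100 to 200 was added after the values were seen. There 10 of 37 members (27%) passed, against 47.1% of all 1819 genes in the band. The dispersion index, which is the chi-square over its degrees of freedom and is 1 for counting error alone, had a median of 2.16 over the members and 3.49 over the genes in their range. Expressed as a coefficient of variation beyond counting error, the median was 8.04% for the members and 10.1% for those genes. The test compares libraries and not conditions, and a difference between the groups, if there is one, is part of the spread. Without library A 16 members passed and without library C 14, while 35.3% and 40.8% of all genes tested did.

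**Figure D3:**
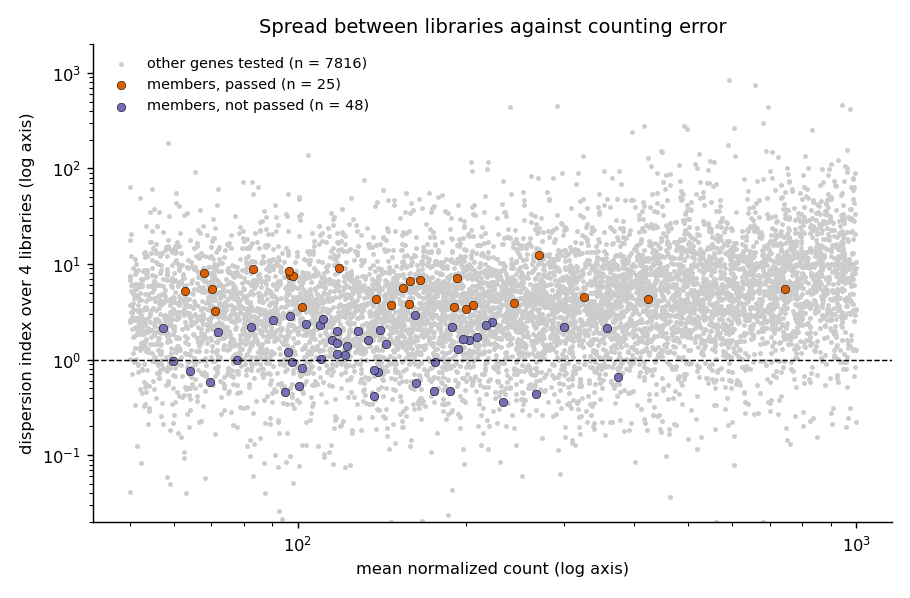
Dispersion index over the 4 libraries (y axis, log scale, values under 0.02 drawn at the lower edge) against the mean normalized count (x axis, log scale) for 73 members and the other genes tested with a mean over 50. The dashed line marks the value of 1 that counting error alone gives, and the members reach at most 12.5.

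The widest spread beyond counting error was that of *Mrps9*, a homologue of bacterial S9, with a dispersion index of 12.5. It had 207 normalized counts in library A, 259 in B, 342 in C and 275 in D. Library A was lowest and library C highest, 1.65-fold apart. *Mrps33*, a mitochondria-specific protein, had 76.0 normalized counts in library A, 116 in B, 130.4 in C and 152 in D and a dispersion index of 9.07. *Mrpl44*, which carries a fold of the ribonuclease III family, had 50.9 normalized counts in library A, 85.7 in B, 114 in C and 82.4 in D and an index of 8.97. Library A was the lowest for these genes as well, 2.00-fold and 2.23-fold under the highest library. All 3 passed the test.

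At the other end, *Mrpl52* with an index of 0.36, *Mrpl14* with 0.42 and *Mrps7* with 0.43 varied no more than counting error gives. *Mrpl14*, a homologue of bacterial L14, had 131 normalized counts in library A, 134 in B, 133 in C and 149 in D. *Mrps7*, a homologue of bacterial S7, had 264 normalized counts in library A, 255 in B, 280.4 in C and 268 in D, and its highest and lowest libraries were 1.10-fold apart. The lower quartile of the index was 1.02 over the 73 members and 1.70 over the genes in their range. The highest library exceeded the lowest by a median of 1.3-fold over the members and 1.32-fold over genes in their range. It did so by more than 1.5-fold for 13 members (17.8%, against 25.5% of genes in the range) and by more than 2-fold for 5 members (6.85%, against 7.15%).

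Of members with a known place in decoding, *Mrps12*, the homologue of bacterial S12 at the decoding centre, had the largest ratio between libraries, 2.40-fold. Its normalized counts were 69.5 in library A, 96.7 in B, 40.4 in C and 65.6 in D, so that library B was highest and library C lowest. The gene passed the test, but rests on few reads, 39 in library C and 114 in library B. *Mrps5*, homologous to bacterial S5, which bears on the accuracy of decoding, passed as well, with 142 normalized counts in library A, 205.3 in B, 216 in C and 208 in D. Library A stood alone below the other 3 for *Mrps5*. The small subunit gene *Mrps2*, homologous to bacterial S2, did not pass, with 71.2 normalized counts in library A, 78.0 in B, 65.2 in C and 64.2 in D.

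Of the 3 paralogs named after bacterial S18, 1 passed. This was *Mrps18c*, with 89.0 normalized counts in library A, 132 in B, 106 in C and 65.6 in D, library D being 2.02-fold under library B. *Mrps18a* did not pass, with 105 normalized counts in library A, 126 in B, 124 in C and 135 in D. *Mrps18b* did not pass either, with 144 normalized counts in library A, 128 in B, 164 in C and 126 in D. *Mrps30* had 104 normalized counts in library A, 136 in B, 103 in C and 101 in D and did not pass. *Mrps36*, now known as a subunit of the 2-oxoglutarate dehydrogenase complex and not of the ribosome, had 62.3 normalized counts in library A, 73.8 in B, 63.1 in C and 57.2 in D and did not pass.

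On the large subunit, *Mrpl12* and *Mrpl11* belong to the stalk that receives translation factors, and *Mrpl12* is also known to bind the mitochondrial RNA polymerase. *Mrpl12* did not pass, with 187 normalized counts in library A, 224 in B, 203 in C and 225 in D. *Mrpl11* passed, with 51.8 normalized counts in library A, 83.1 in B, 73.5 in C and 43.3 in D, library D being 1.92-fold under library B. *Mrpl3*, a homologue of bacterial L3 close to the catalytic centre, passed with 172 normalized counts in library A, 124 in B, 130.4 in C and 127 in D, and here library A was the high one. The other members that passed had between 1.21-fold and 2.08-fold from the lowest to the highest library, the latter being *Mrpl40* with 83.3 normalized counts in library A, 131 in B, 109.7 in C and 62.8 in D.

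Summed over all 73 genes, the normalized counts were 11050 in library A, 11915 in B, 12320 in C and 11460 in D. The highest and lowest sums were 1.11-fold apart, against 1.01-fold for the sum over the 6855 genes in the members' range. Size factors put the libraries on 1 scale, and a sum over so many genes averages out the spread of single genes. These ratios are therefore not like for like, and no other set of 73 genes was summed. As a share of the reads in recovered genes, members took 0.409% in library A (95% exact binomial interval 0.403 to 0.416), 0.444% in B (0.436 to 0.451), 0.459% in C (0.451 to 0.467) and 0.429% in D (0.420 to 0.439). Library A lay below the other 3 with an interval that did not overlap theirs. These intervals cover counting error only, and the spread between samples of a group is not in them. The *Mrpl* sums were 7449, 7806, 8275 and 7642 in libraries A to D, and the *Mrps* sums 3601, 4109, 4045 and 3818. The ratio of the *Mrpl* to the *Mrps* sum was 2.07, 1.90, 2.05 and 2.00.

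**Figure D4:**
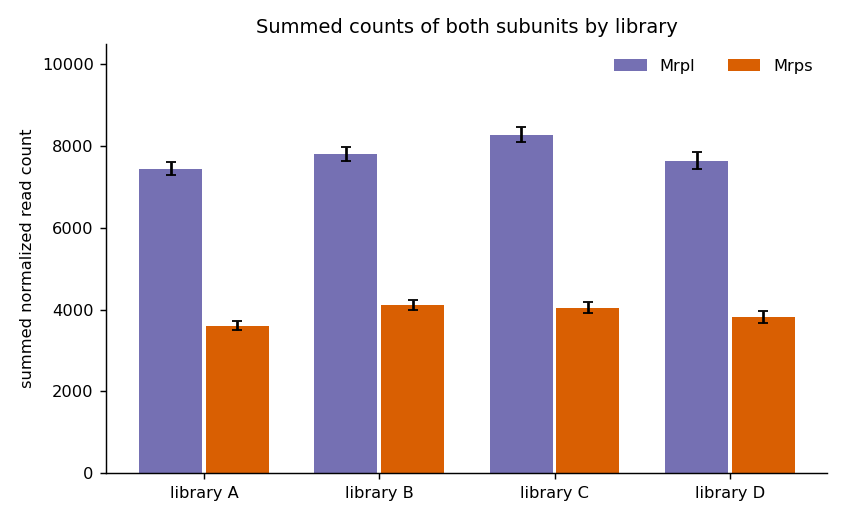
Summed normalized read count (y axis) of the 44 *Mrpl* and 29 *Mrps* genes in libraries A to D (x axis), with bars from 0 and error lines for the 95% Poisson interval of counting error. Library A has the lowest sum of both subunits, 7449 and 3601.

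The lowest value of a member was most often in library A, which held it for 28 of the 73 genes (38.4%, against 31.9% of genes in their range). Library D held it for 24 (32.9%, against 24.6%). The highest value was in library C for 29 genes (39.7%, against 27.2%) and in library B for 23 (31.5%, against 28.2%). The median deviation of a member from its mean over the 4 libraries, on the log2 scale, was -0.09 in A, 0.05 in B, 0.08 in C and -0.04 in D, and that of genes in the range -0.03, 0.02, 0.02 and -0.01. These counts are a description, and how far the members move together was not tested. In libraries B and C, with the higher member sums, the myeloid sum, *Lor* and the sebaceous marker *Plin2* (878, 1054, 1406 and 642 normalized counts in A to D) were also higher than in A and D. *Mc5r*, the other sebaceous marker recovered, had 0.81, 1.70, 4.14 and 4.19 on very few reads and was highest in D. The melanocyte sum was high in C but lower in B than in A, as was the myeloid marker *Cd207* (256, 189, 324 and 205.2). The endothelial sum was 73.6, 75.5, 92.1 and 25.1, and *Pdgfra* had 43.7, 32.2, 48.6 and 33.5.

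Lists of genes that work with the mitochondrial ribosome had median levels from 44.5 per kilobase (aminoacyl-tRNA synthetases) to 114 (ribosomal proteins under other symbols), beside 91.5 for the members. Of the 7 ribosomal proteins filed under other symbols 6 were found, and 1 of the 6 passed the library test. *Dap3*, a GTP-binding small subunit protein, led them with 590.3 normalized counts in library A, 595 in B, 567 in C and 649 in D. *Ict1*, a large subunit protein that releases peptides from stalled ribosomes, had 116 normalized counts in library A, 129 in B, 96.2 in C and 92.1 in D, and neither gene passed. *Ptcd3*, a pentatricopeptide-repeat protein of the small subunit, was the one that passed, with 256 normalized counts in library A, 319.8 in B, 249 in C and 239 in D.

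These counts and those that follow stand beside 52.4% of all genes tested, and no list was tested as a set. Of 14 translation factors found, 4 passed. *Tufm*, the elongation factor that brings aminoacyl-tRNA, passed with 327 normalized counts in library A, 438 in B, 467 in C and 461 in D, and library A was the low one. *Gfm1* and *Gfm2*, elongation factors G of translocation and recycling, did not pass. *Lrpprc*, which stabilizes mitochondrial mRNA, did not pass, with 429 normalized counts in library A, 448 in B, 449 in C and 406 in D. Of 22 assembly factors found, 6 passed, among them *C1qbp*, a matrix protein, with 305 normalized counts in library A, 436 in B, 407 in C and 405 in D. Of the 21 aminoacyl-tRNA synthetase genes and partners tested, 3 passed, and of the 11 genes of mitochondrial transcription and its regulators 5 did. Genes for mitochondrial chaperones and proteases passed in 5 of 8 and genes of the integrated stress response in 5 of 10. *Phgdh*, the first enzyme of serine synthesis and a target of the latter, had 746 normalized counts in library A, 853 in B, 769 in C and 1168 in D, and library D stood above the other 3. The recovered genes of this list with the next highest means did not share this. *Shmt2* and *Psat1* were highest in library C, and *Ddit3* was highest in library A, with 549 normalized counts against 450 in D. None of the 15 names of mitochondrially encoded genes matched a row, and these genes were not analysed here.

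The promoters of the genes were read from RefSeq (GRCm38.p6) as 300 bases, from 250 before to 50 after the gene start. An entry was found for 64 of the 73 members, and not for *Mrpl13*, *Mrpl15*, *Mrpl19*, *Mrpl38*, *Mrpl4*, *Mrpl54*, *Mrps28*, *Mrps34* and *Mrps35*. Nuclear respiratory factor 1 (NRF1), ETS factors such as GABPA and YY1 are known regulators of nuclear genes for mitochondria, and their own genes were expressed. *Nrf1* had 343 normalized counts in library A, 336 in B, 346 in C and 325 in D. *Gabpa* had 696 normalized counts in library A, 715 in B, 671 in C and 736 in D. *Yy1* had 1083 normalized counts in library A, 951 in B, 841 in C and 1071 in D, and only *Yy1* of the 3 passed the library test. The letters searched on both strands were GCGCA, any base and GCGC for NRF1, CCGGAAG for ETS and AAGATGGCG for YY1. An ETS and a YY1 match may overlap by the shared letters AAG.

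The shares of member promoters with each motif are given beside those of the 7975 genes with a mean over 50 and of all 27025 genes with a promoter. NRF1 letters were in 13 of 64 promoters (20.3%, Wilson 95% interval 12.3 to 31.7), against 12.4% and 5.19%, so that the interval reaches the first of these. For ETS the members had 23 of 64 (35.9%, 25.3 to 48.2), against 20.9% and 9.93%. For YY1 they had 8 of 64 (12.5%, 6.47 to 22.8), against 3.96% and 1.64%. At least 1 of the 3 was present in 38 of 64 (59.4%), against 33.0% and 15.1%. The TATA box letters, TATAAA, were in 5 of 64 (7.81%, 3.38 to 17.0), against 8.43% and 15.7%. The median GC content of the members' promoters was 58.2%, against 61.7% and 52.8%. These shares are a description and no test was run, and a match is not shown to be a bound site.

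The 2 members with the highest level per kilobase for each motif are printed as 30-base windows on the gene's strand, 5′ to 3′, with the motif in capitals. For NRF1 and ETS the capitals show the motif as it reads from the opposite strand.
*Mrpl30* NRF1, chr1:37890384-37890413, plus strand: tgacgccgctGCGCCTGCGCtgtcttctat
*Mrps21* NRF1, chr3:95871586-95871615, minus strand: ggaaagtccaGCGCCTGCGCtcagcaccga
*Mrpl52* ETS, chr14:54426851-54426880, plus strand: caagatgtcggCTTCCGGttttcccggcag
*Mrps21* ETS, chr3:95871478-95871507, minus strand: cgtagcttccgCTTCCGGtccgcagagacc
*Mrpl42* YY1, chr10:95501903-95501932, minus strand: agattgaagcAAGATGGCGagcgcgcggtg
*Mrpl37* YY1, chr4:107066821-107066850, minus strand: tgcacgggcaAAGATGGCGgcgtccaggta
The NRF1 and ETS windows of *Mrpl30* and *Mrpl52* lie before the gene start, with the motif beginning 83 and 47 bases before it, while the YY1 motifs of *Mrpl42* and *Mrpl37* begin 27 and 26 bases after it. *Mrps21*, the small subunit gene with the highest level, holds both an NRF1 and an ETS motif.

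**Figure D5:**
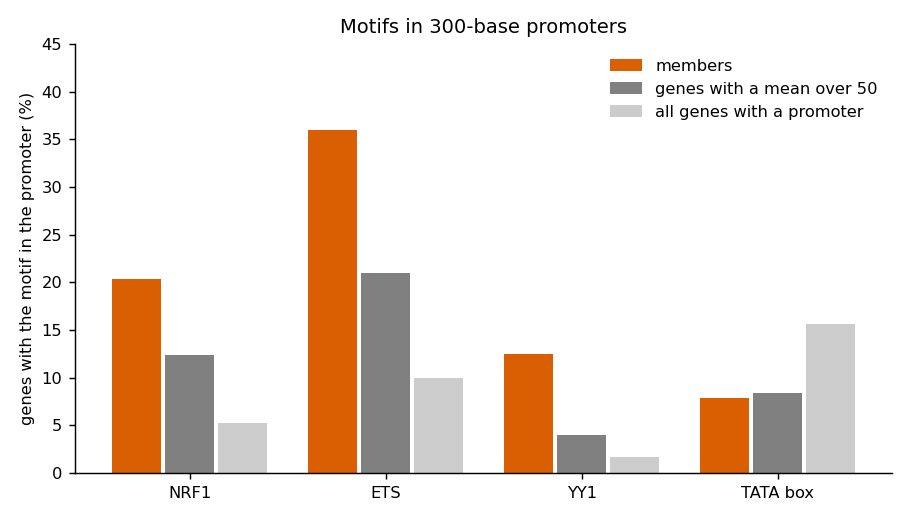
Share of genes with a motif in the 300-base promoter (y axis, percent) for the 64 members with an entry, the 7975 genes with a mean over 50 and all 27025 genes with a promoter. For NRF1, ETS and YY1 the member bar is the tallest of the 3, and for the TATA box it is at 7.81%.

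Since *miR-205* is the agent of the study, the members were also searched for its sites. The mature strand (RefSeq, chr1:193507503-193507524 of GRCm38.p6, minus strand) is printed with its seed, bases 2 to 8, in capitals.
mmu-miR-205-5p: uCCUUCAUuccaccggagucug
A match to the whole seed, ATGAAGG, was present in the longest annotated 3′UTR of 1 of the 73 members (1.37%), against 1240 of 10050 genes with a mean above 50 (12.3%). The members' 3′UTRs were short, with a median of 329 bases against 1239, and the share was not corrected for length. The gene with the match is *Mrps25*, which has the site in its last exon, 4 of 4, within chr6:92124870-92124899 (NCBIM37, minus strand, GENCODE vM1).
*Mrps25* site: aaggacatgggATGAAGGccagggttgcca
*Mrps25* is the gene with the longest transcript of the members, and its counts in the 4 libraries, given above, did not pass the test.

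The 73 genes lie on 17 chromosomes (GRCm38.p6), with 8 each on chromosomes 11 and 17 and 7 on chromosome 6. The span of 25 of them, introns included, overlaps that of another gene on either strand, and the share over all genes was not computed. Examples are *Mrps6* with *Slc5a3* and *Mrpl43* with *Twnk*, which encodes the mitochondrial DNA helicase. The library kit keeps strand, but whether reads were counted by strand is not given in the sources used here. Counts of these 25 may therefore be affected by the neighbour, and whether exons are shared was not tested. Reads shared with processed pseudogenes of the members were not tested.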

How the data were processed

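Bulk RNA-seq of HF-SCs from 2 control and 2 induced samples was used. Per the study's methods, 150-nt read pairs were placed on mm10 by HISAT2 2.1.0, converted by SAMtools 1.3.1 and tallied by HTSeq. The authors ran DESeq2 at its defaults. The annotation is not given in the sources used here. The authors deposited 1 signal per gene, the mean over the 4 libraries of read counts scaled by size factors. The other columns hold the authors' log2 fold change, its standard error, the Wald statistic and p-values and were not used. The table holds 0 columns of values for single samples.

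For each mean up to 1000, all sets of 4 whole read counts that give the printed value within its last digit were listed, without any prior on the counts, and size factors were read from the weight of 1 read. Size factors recomputed from the recovered genes differed from these by at most 2.14%. Recovered libraries carry no label, and the authors' fold changes, which could bear on their groups, were not used, so the planned comparison of induced with control samples was not run. Libraries were compared with a chi-square test per gene, with Benjamini-Hochberg adjustment over all 10669 genes tested and a cutoff of 0.05. Levels were divided by the longest protein-coding transcript of GENCODE vM1, matched by symbol or RefSeq synonym, which gave a length for all 73 members. The steps were tested on simulated data.

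Genes named are the 8 highest and 8 lowest levels, the 3 nearest the minimum on each side, the 3 with the largest and the 3 with the smallest spread beyond counting error, members fixed by role, and at most 4 genes of each other list. Sentences on *Mrpl40*, *Slc5a3*, *Twnk*, *Mrpl34*, *Mrpl37*, *Mrpl43*, *Shmt2*, *Psat1* and *Ddit3* were added after their values were seen. The members and lists were chosen with earlier results of these data known. Alternatives were the minimum of the mean, the length, the genes ranked, the denominator of shares, the scaling, the adjustment, each library left out, and shorter motifs and windows. The software was numba 0.67.0, scipy 1.17.1 and numpy 2.4.6 for the statistics, with pandas 2.3.3 and matplotlib 3.10.9 under Python 3.11.15.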

Additional observations from a re-analysis of the deposited data

How the results depend on the processing

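No paired analysis was possible because the deposited mean pools the 4 libraries and the recovered libraries were not tied to a group or replicate number. For the same reason the comparison of induced with control samples was not run. The share without mitochondrially encoded genes was not run, since none of their names matched a row.

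With a mean over 200, 16 members were left, the median level was 189 per kilobase and the ratio of *Mrpl* to *Mrps* was 1.54. With the coding length the median level was 231 per kilobase. The median percentile of the members was 38.9 among genes with a mean over 50 and 52.2 by mean normalized count. Without the 50 recovered genes with the highest mean the share of reads was 0.417% in library A, 0.452% in B and 0.467% in C. Of the members, 15 differed between libraries at an adjusted p under 0.01, beside 38.1% of all genes tested. With 1 library left out 14 to 24 members did, beside 35.3% to 45.1% of genes, the lowest being 14 without library C (40.8% of genes) and 16 without library A (35.3%). These settings leave fewer genes, fewer libraries or another denominator, and no further cause was tested. With 1 base fewer the ETS letters were in 57.8% of member promoters and 32.6% of those of genes with a mean over 50, and in the 150 bases nearest the start the TATA box letters were in 1.56% and 3.94%. Further alternatives were the scaling by recovered totals, the adjustment over genes with a mean over 50 and a mean over 0. The 2 genes moved to the large subunit and the other motif settings were run as well. With these, counts of members stayed within 1.5-fold of the main value. The median level and the ratio stayed within their range over the 4 libraries, and motif shares within the Wilson interval. Depth limits the members with few reads, which had as few as 31 in a library.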

Other observations

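*Lars2*, the mitochondrial leucyl-tRNA synthetase, had a mean normalized count of 114449, while the other 21 genes of the list of synthetases and partners had at most 739. Its reads per library were not recovered, and the cause of the value was not tested.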
